A study of Mus musculus with 16 samples.

Results

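The aminoacyl-tRNA synthetases of the mouse were followed, together with the non-catalytic proteins that hold some of them in a complex, as a family of 40 genes among the 22322 genes that both deposited tables list. The family comprised 21 genes for cytosolic synthetases, 16 for mitochondrial synthetases and 3 for scaffold proteins of the multi-synthetase complex. Membership followed name and function and used no expression value, although the family was taken up with earlier results of these data known, and all 40 genes were found by symbol in both tables. The libraries came from DIO (diet-induced obese) mice that received either vehicle or the plant-alkaloid derivative halofuginone, injected into the peritoneum at 100 µg/kg with 2 days between doses, and that were sampled at week 8. Each arm had 5 libraries from liver and 3 from white adipose tissue (called fat here). Sample titles mark the vehicle arm HFD (usually high-fat diet) and the halofuginone arm H100. Obesity was common to all 4 groups, and a lean group was not analysed here. Genotype, strain, sex, age and the fat depot are not given in the sources used here, nor is it stated whether liver and fat of the same number came from the same mouse. Nothing there says that the libraries of a group are separate mice, so the p-values measure only the spread between these libraries, which may be technical in part.

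Each synthetase joins its own amino acid to the matching tRNA, which then carries that amino acid to the ribosome. In the cytosol a subset of the enzymes is assembled into a large complex around the proteins Aimp1, Aimp2 and Eef1e1, whereas mitochondria use a separate set made from other nuclear genes, apart from the glycyl and lysyl enzymes, whose genes Gars and Kars serve both compartments. Halofuginone inhibits prolyl-tRNA synthetase, which in the cytosol is part of the double-function enzyme made from Eprs (glutamyl and prolyl activities in a single chain). Uncharged tRNA is known to activate the kinase GCN2, which favours translation of the transcription factor ATF4, and several cytosolic synthetase genes are established ATF4 targets. ATF4 and its partners bind a composite DNA element, the C/EBP-ATF response element.

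The promoters are shown first because members with and without this element can then be compared with their values. RefSeq promoter windows (GRCm38.p6, 250 bases before to 50 bases after a gene's start) were at hand for 31 of the 40 members, that is 14 cytosolic, 14 mitochondrial and 3 scaffold genes. The letters TGATGNAA, which read TTNCATCA on the other strand, were searched on both strands. They occurred in 3.97% of all 32851 windows, and in 5 of the 14 cytosolic members with a window (35.7%), 0 of the 14 mitochondrial members and 0 of the 3 scaffold genes. The 5 cytosolic genes were Aars, Gars, Iars, Tars and Yars. Printed for these 5, and for Eprs and Sars, which had no match but large differences under the drug, are 120 bases before the start and 30 bases after it, 5′ to 3′ on the strand of the gene, with matches in capitals. The windows, with coordinates of GRCm38.p6, lie at chr8:111033722-111033871 (plus strand) for Aars, chr6:55037881-55038030 (plus) for Gars, chr13:49682010-49682159 (plus) for Iars, chr15:11399629-11399778 (minus) for Tars, chr4:129189783-129189932 (plus) for Yars, chr1:185362924-185363073 (plus) for Eprs and chr3:108445230-108445379 (minus) for Sars.
Aars: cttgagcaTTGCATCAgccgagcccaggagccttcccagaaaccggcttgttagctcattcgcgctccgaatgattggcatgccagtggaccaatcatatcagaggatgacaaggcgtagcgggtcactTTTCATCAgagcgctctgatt
Gars: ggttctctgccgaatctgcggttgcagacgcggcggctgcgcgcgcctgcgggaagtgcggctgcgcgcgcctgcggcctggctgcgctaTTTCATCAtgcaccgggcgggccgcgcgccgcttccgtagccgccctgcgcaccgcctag
Iars: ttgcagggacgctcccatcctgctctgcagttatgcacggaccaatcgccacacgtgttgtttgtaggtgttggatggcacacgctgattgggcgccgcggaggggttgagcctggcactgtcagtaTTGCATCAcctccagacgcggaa
Tars: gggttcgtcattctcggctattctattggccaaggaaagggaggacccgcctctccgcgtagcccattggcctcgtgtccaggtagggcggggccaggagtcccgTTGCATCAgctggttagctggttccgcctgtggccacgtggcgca
Yars: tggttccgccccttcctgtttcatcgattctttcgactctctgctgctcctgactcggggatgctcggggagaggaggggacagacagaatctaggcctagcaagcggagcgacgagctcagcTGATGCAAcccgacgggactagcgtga
Eprs: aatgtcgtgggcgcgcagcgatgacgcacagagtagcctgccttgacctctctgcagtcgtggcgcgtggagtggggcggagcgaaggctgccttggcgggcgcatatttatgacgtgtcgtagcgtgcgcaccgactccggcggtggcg
Sars: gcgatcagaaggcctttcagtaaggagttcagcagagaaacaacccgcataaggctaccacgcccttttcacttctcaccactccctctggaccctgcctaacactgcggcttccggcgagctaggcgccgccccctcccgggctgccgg
With the first transcribed base counted as 1 and no position 0, the matches began at -112 and 10 in Aars, at -30 in Gars, at 8 in Iars, at -15 in Tars and at 4 in Yars. Aars was the member with more than a single match. A match is a run of letters and not a measured binding site, and no match says only that these letters are not in the window.

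In liver most of the calls in the family were cytosolic synthetases with higher levels under halofuginone, and in fat no gene at all was called. Levels are given as CPM, the counts after division by the TMM-adjusted size of their library, with liver and fat scaled separately. Differences are log2 fold changes of halofuginone over vehicle from edgeR's quasi-likelihood test on all genes of a tissue, and a gene was called where the Benjamini-Hochberg adjusted p was under 0.05. The liver libraries held 20309956 to 31980683 counts and the fat libraries 17070614 to 21387799, so that 3 counts, the limit that a count of 0 allows, correspond to 0.0983 to 0.150 CPM in liver and 0.139 to 0.180 CPM in fat (counting error only). All 40 members were above these limits in all 16 libraries, and all 40 passed the filter on low counts in both tissues.

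Halofuginone liver 1 stood apart from the other 4 halofuginone livers before any test, and its total of 20309956 counts was the smallest of the liver libraries. Among the 21 cytosolic synthetases this library lay inside the vehicle range for 11, below it for 8 and above it for 2. The mean log2 difference from vehicle over the 21 genes was -0.09 in this library and 0.54 to 0.63 in halofuginone livers 2 to 5. Over the 27 tested genes of a list of GCN2 and ATF4 response genes, the same measure was 0.07 in halofuginone liver 1 against 1.73 to 1.90 in the other 4. By these means the library stood with the vehicle livers, against its label. Yet in 7 of the 27 response genes every halofuginone liver, this one included, lay above every vehicle liver, beside 5.13% of all genes. In 1 of the 27 every halofuginone liver lay below, beside 6.55% of all genes. Whether this library was dosed and labelled as the others were was not tested. It enters every value with n = 5 as labelled, and counts of calls and some fitted values are also given without it. The library was picked out largely by the levels of these same genes. Leaving it out therefore favours larger differences and smaller p for them, and those fits are a description and not independent support.

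**Figure D1:**
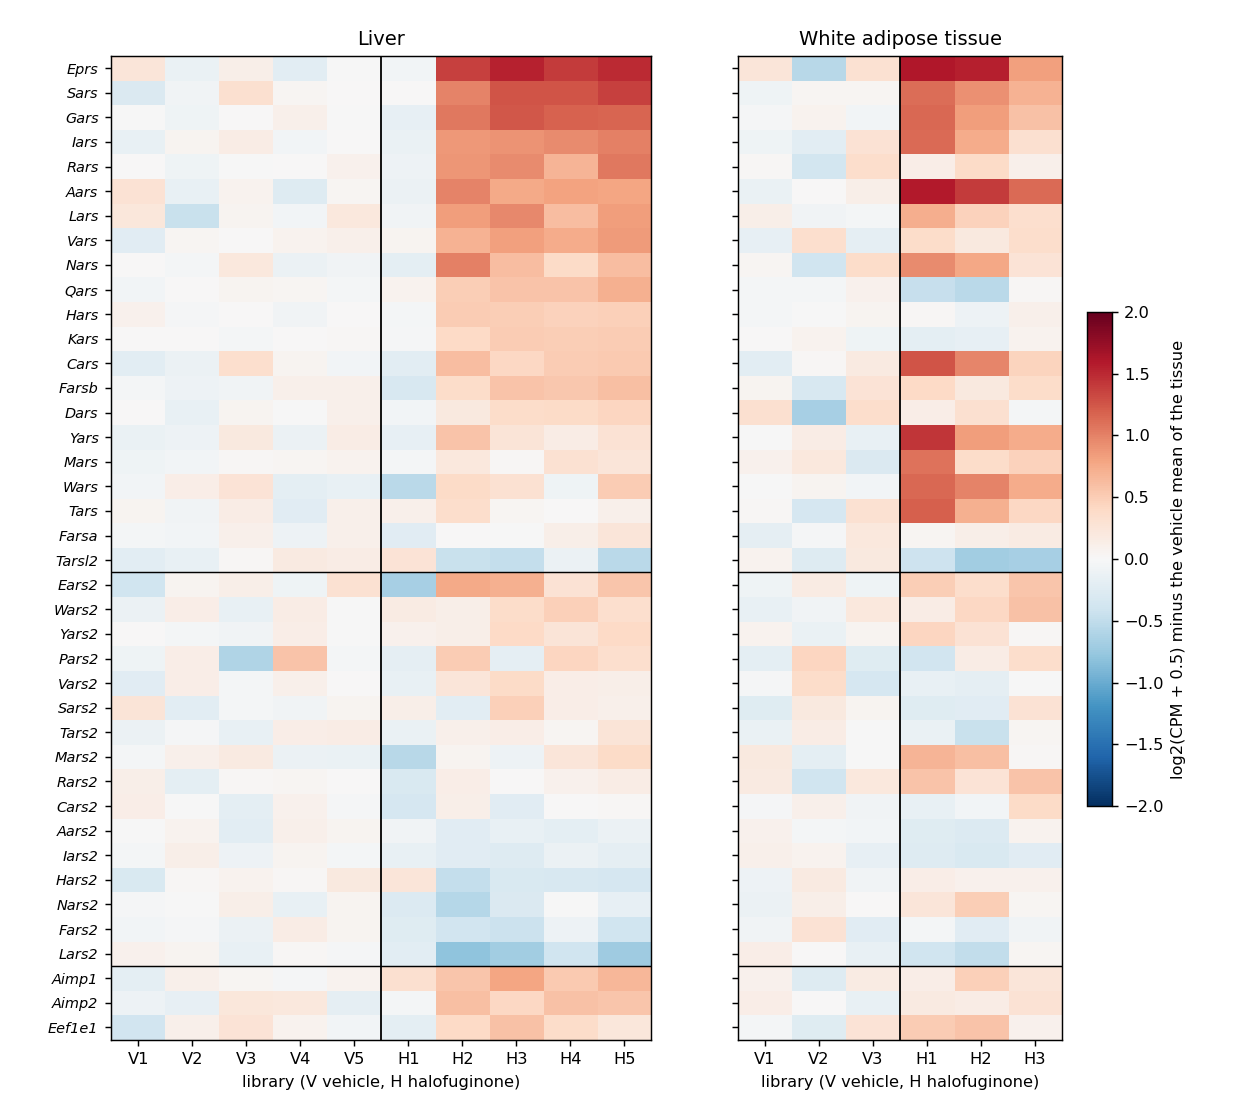
Heat map of log2(CPM + 0.5) minus the vehicle mean of the tissue for the 40 members (rows, in 3 blocks from top to bottom: cytosolic synthetases, mitochondrial synthetases, scaffold genes) in each of the 16 libraries (columns; V vehicle, H halofuginone). Red is above and blue below the vehicle mean. Columns H2 to H5 of liver are red for most cytosolic rows, column H1 of liver has no red cytosolic row of that depth, and the mitochondrial rows are mostly pale in both tissues.

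Eprs (ENSMUSG00000026615), whose product holds the prolyl-tRNA synthetase that the drug inhibits, had the largest fitted difference of the family in liver. It stood at 134, 103, 123, 97.4 and 113 CPM in vehicle livers 1 to 5 and at 109, 292, 329, 299 and 321 CPM in halofuginone livers 1 to 5. Halofuginone livers 2 to 5 all lay above the highest vehicle liver, while halofuginone liver 1 lay inside the vehicle range, so that the groups overlapped. The log2 fold change was 1.24 ± 0.25 (SE, n = 5 and 5), a 2.37-fold rise with an adjusted p of 0.0102 in edgeR. Without halofuginone liver 1 it was 1.42 ± 0.11 with an adjusted p of 1.03e-05.

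In fat, Eprs was at 148, 85.2 and 155 CPM with vehicle and at 382, 368 and 222 CPM with halofuginone. All 3 halofuginone libraries lay above all 3 vehicle libraries, although replicates within each arm differed widely. The log2 fold change of 1.32 ± 0.31 (SE, n = 3 and 3) had an unadjusted p of 0.00401 and an adjusted p of 0.187 in edgeR, so that the gene was not called. Between the tissues the difference of the 2 effects was 0.06 ± 0.42 (SE) on the log2 scale, with an adjusted p of 0.992.

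Pars2 (ENSMUSG00000043572), the mitochondrial prolyl-tRNA synthetase, did not pass the test in either tissue. Its levels were 1.94, 2.35, 1.21, 3.36 and 2.03 CPM in vehicle livers and 1.79, 3.17, 1.79, 2.97 and 2.76 CPM in halofuginone livers. In fat they were 3.24, 5.21 and 3.12 CPM with vehicle and 2.77, 4.23 and 4.94 CPM with halofuginone. The groups overlapped in both tissues. The log2 fold changes were 0.19 ± 0.27 in liver (adjusted p = 0.624) and 0.05 ± 0.36 in fat (adjusted p = 0.971). At 1.21 to 5.21 CPM it had the fewest counts of the family, and its standard errors were accordingly wide.

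**Figure D2:**
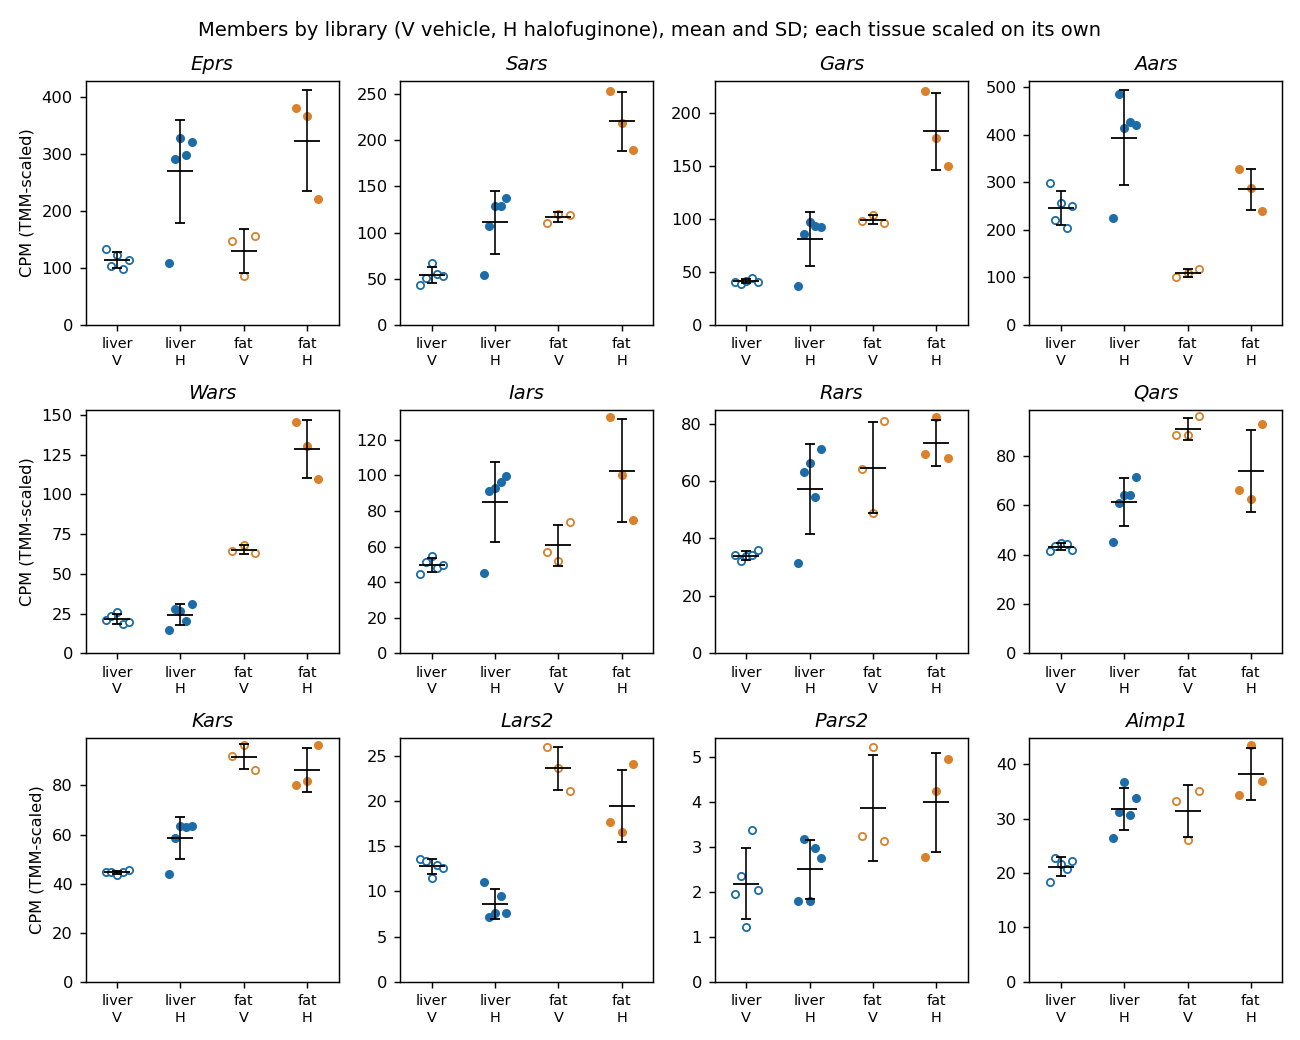
CPM of 12 members in each library (points; V vehicle, open; H halofuginone, filled), with the group mean and SD (bar and whiskers); each panel has its own axis from 0. For Eprs, Sars, Gars and Iars 4 halofuginone livers sit high and halofuginone liver 1 sits at or below the level of the vehicle livers; for Qars and Kars halofuginone livers 2 to 5 are high, while the fat groups overlap.

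In liver, 11 of the 21 cytosolic synthetases rose and 0 fell, against 12.7% called higher and 10.5% called lower among the 12311 genes tested (23.2% in all). The median log2 fold change of the 21 was 0.40, with a range from -0.25 to 1.24, against 0.02 over all genes tested. The 0 lower calls came from edgeR, which also had 0 lower members at an unadjusted p under 0.05, and DESeq2 likewise called 0 lower, and 12 higher, against 14.2% and 15.4% of all genes. At an unadjusted p under 0.05 edgeR had 15 higher, against 21.1% higher and 18% lower. Without halofuginone liver 1 the counts were 16 higher and 1 lower (Tarsl2), with 21.2% and 21.6% of 12422 genes called, and the median was 0.51. Leaving out any other library gave 7 to 11 higher calls and 0 lower, with 7 where vehicle liver 2 or 3 or halofuginone liver 3, 4 or 5 was left out. The share of all genes called in those sets was not worked out.

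The cytosolic members called in liver beside Eprs served many different amino acids. Sars, the seryl-tRNA synthetase, was at 43.3, 50.6, 66.7, 55.0 and 53.3 CPM in vehicle livers and at 53.6, 107, 128, 128 and 138 CPM in halofuginone livers. Gars (ENSMUSG00000029777), the glycyl enzyme, was at 40.8, 38.6, 41.4, 44.0 and 40.7 CPM and at 36.7, 85.6, 97.6, 93.6 and 92.7 CPM. In both genes halofuginone livers 2 to 5 were above every vehicle liver, and halofuginone liver 1 was inside the vehicle range for Sars and below it for Gars. Sars rose by 1.04 ± 0.22 on the log2 scale (2.06-fold, adjusted p = 0.0114) and Gars by 0.98 ± 0.22 (1.98-fold, adjusted p = 0.0126).

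The isoleucyl, arginyl and alanyl enzymes showed the same arrangement of libraries. Iars was at 44.7, 51.3, 54.9, 47.9 and 49.6 CPM in vehicle livers and at 45.0, 91.1, 93.2, 96.1 and 99.8 CPM in halofuginone livers. Rars was at 34.1, 32.0, 33.8, 34.2 and 36.1 CPM and at 31.6, 63.2, 66.3, 54.5 and 71.0 CPM. Aars (ENSMUSG00000031960) was at 299, 221, 256, 204 and 250 CPM and at 224, 486, 415, 426 and 420 CPM. For each of the 3 genes halofuginone livers 2 to 5 lay above the vehicle range, and the overlap of the groups came from halofuginone liver 1. Iars rose by 0.78 ± 0.19 (adjusted p = 0.0168), Rars by 0.75 ± 0.18 (adjusted p = 0.0167) and Aars by 0.68 ± 0.19 (adjusted p = 0.0300) on the log2 scale, but the call of Aars was lost in 8 of the 10 sets that left out a library, with adjusted p up to 0.0781.

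The other called cytosolic genes were Vars (valyl) at 0.67 ± 0.14, Lars (leucyl) at 0.67 ± 0.19, Qars (glutaminyl) at 0.50 ± 0.11, Hars (histidyl) at 0.40 ± 0.11 and Kars (lysyl) at 0.40 ± 0.10, with adjusted p from 0.0117 to 0.0287. Qars was the cytosolic gene whose liver groups did not overlap, at 41.5, 43.5, 44.9, 44.4 and 41.8 CPM against 45.3, 61.0, 64.4, 64.1 and 71.4 CPM. Halofuginone liver 1 was just above the highest vehicle liver for this gene. Such separation was seen in 1 of the 21 cytosolic genes, beside 5.13% of all genes with the halofuginone libraries higher. Without halofuginone liver 1 it was seen in 15 of 21, beside 18.8% of all genes. The calls of Lars, Hars and Kars were lost in 7, 8 and 5 of the 10 sets that left out a library, with adjusted p up to 0.0724.

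Hars and Kars varied little among vehicle livers. Hars was at 33.1, 30.6, 31.5, 29.7 and 31.5 CPM with vehicle and at 30.5, 44.8, 44.4, 43.2 and 43.6 CPM with halofuginone. Kars was at 44.7, 44.6, 43.4, 44.6 and 45.5 CPM and at 44.0, 58.6, 63.7, 63.1 and 63.6 CPM. Both genes had 4 halofuginone livers well above a narrow vehicle range and the remaining library, halofuginone liver 1, within it.

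The other 10 cytosolic members did not pass the test in liver. Nars (asparaginyl) stood at 0.54 ± 0.18 (adjusted p = 0.0551), Cars (cysteinyl) at 0.40 ± 0.16, Farsb (a subunit of the phenylalanyl enzyme) at 0.39 ± 0.16 and Dars (aspartyl) at 0.27 ± 0.10, with adjusted p from 0.0551 to 0.0899. These 4 were called without halofuginone liver 1, as was Yars (tyrosyl), at 0.30 ± 0.11 with an adjusted p of 0.0432. Farsa, the partner subunit of Farsb, stood at 0.03 ± 0.10, Tars (threonyl) at 0.12 ± 0.11, Mars (methionyl) and Wars (tryptophanyl) each at 0.15, and Tarsl2, a second cytosolic threonyl-tRNA synthetase gene, at -0.25 ± 0.17. The 2 subunits of the phenylalanyl enzyme, which work as a fixed assembly, thus had differing fitted values, a difference that was not itself tested.

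**Figure D3:**
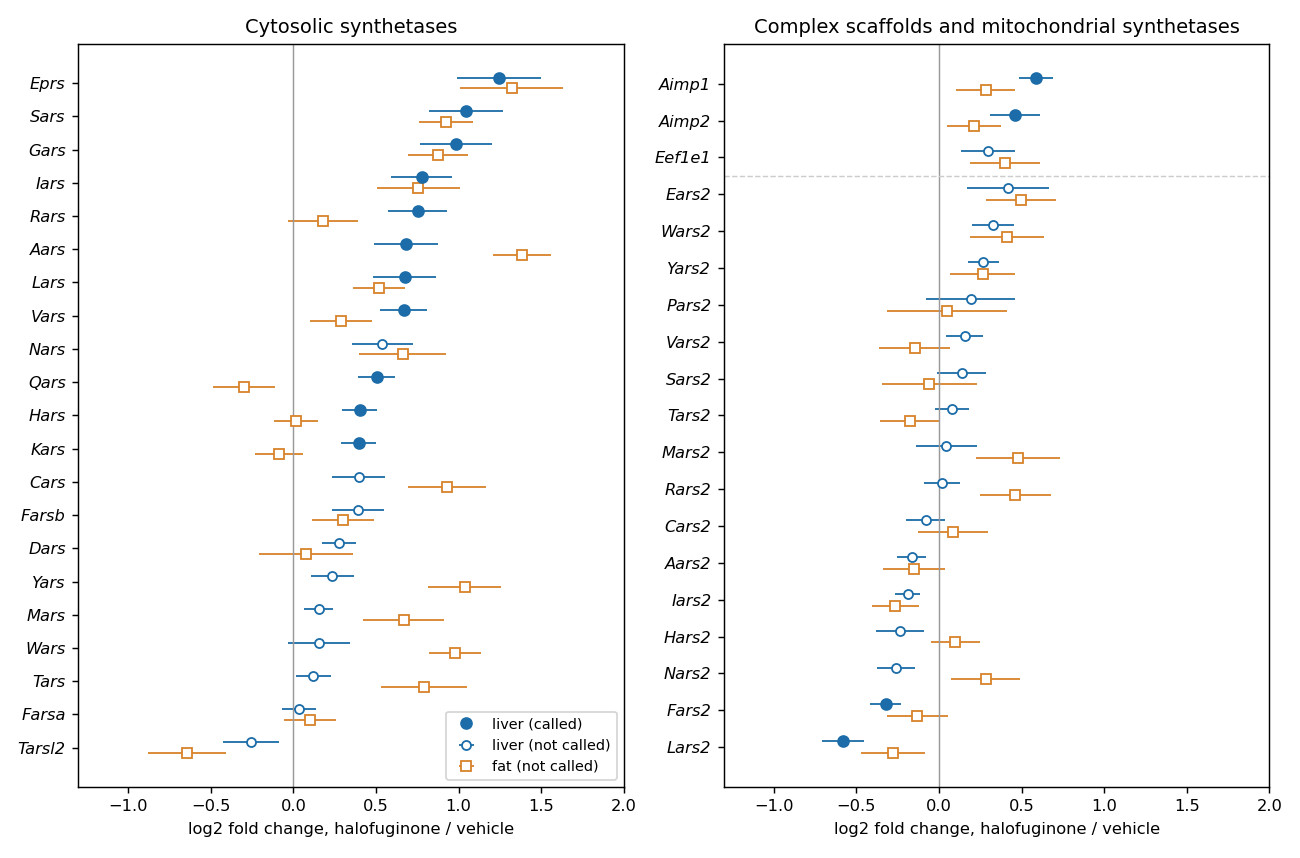
Log2 fold change of halofuginone over vehicle for the cytosolic members (left) and for the scaffold genes and mitochondrial members (right), with bars of 1 SE, in liver (circles, filled where called in edgeR) and fat (squares). Members are ordered by the liver value within each block; the cytosolic points lie mostly right of 0 and the mitochondrial points on both sides of it, and in fat no gene was called.

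Hepatocyte markers also differed in these livers. Of 8 markers, Tat was called higher (1.66 ± 0.32, adjusted p = 0.00827) and Ttr lower (-1.17 ± 0.30, adjusted p = 0.0217), and the median log2 fold change was -0.66. At an unadjusted p under 0.05, in DESeq2 and without halofuginone liver 1 (median -0.84) 5 of the 8 were lower. Their summed level was 124375 to 136647 CPM in vehicle livers and 43472 to 117829 CPM in halofuginone livers, highest among the latter in halofuginone liver 1. Of 8 macrophage markers 0 were called in liver by edgeR or DESeq2, and 0 had an unadjusted p under 0.05, but without halofuginone liver 1, whose summed level of 606.5 CPM was the highest, 2 were called lower. Fibroblast markers summed to 180.1 to 267.8 CPM with vehicle and 132.1 to 210.2 CPM with halofuginone, with 2 of 7 called lower (3 without halofuginone liver 1), and of 8 endothelial markers 1 was called higher and 3 lower (0 and 4 without it). The adipocyte list summed to 69.7 to 145.6 CPM and to 23.5 to 73.6 CPM, and 3 of its 4 tested genes were called lower (Cfd, Fabp4 and Lipe), while the defining gene Adipoq was at 0.0396 CPM at most. Beside these marker counts, edgeR called 12.7% of all genes higher and 10.5% lower, or 21.2% and 21.6% without halofuginone liver 1. At the unadjusted p 18% of all genes were lower, and DESeq2 called 14.2% lower. In whole tissue, fewer cells of a type and less RNA per cell cannot be told apart, and the part of these differences in the synthetase values was not tested.

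Of the 3 scaffold genes of the complex, 2 rose in liver. Aimp1 was at 18.4, 22.7, 21.6, 20.6 and 22.2 CPM in vehicle livers and at 26.3, 31.3, 36.7, 30.6 and 33.7 CPM in halofuginone livers. Every halofuginone liver, including the first, lay above every vehicle liver. Aimp1 rose by 0.59 ± 0.10 on the log2 scale (1.50-fold, adjusted p = 0.00608) and Aimp2 by 0.46 ± 0.15 (adjusted p = 0.0452), whereas Eef1e1 stood at 0.30 ± 0.16 (adjusted p = 0.194). The call of Aimp2 was lost in 8 of the 10 sets that left out a library, and all 3 genes were called without halofuginone liver 1. Of the 8 synthetases that reside in the complex, 6 were called higher in liver with a median of 0.59, and of the 13 that do not, 5 were called with a median of 0.40. The counts without halofuginone liver 1 were 7 of 8 higher, and 9 of 13 higher and 1 lower, with medians of 0.68 and 0.49. Of all genes 12.7% were called higher with every library and 21.2% without that one. Whether these 2 groups differ was not tested.

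Few mitochondrial synthetases passed the test in liver. Of the 16, edgeR called 0 higher and 2 lower, with 2 higher and 4 lower at an unadjusted p under 0.05, and DESeq2 called 0 higher and 3 lower, the third being Iars2. Of all genes edgeR called 12.7% higher and 10.5% lower, 21.1% and 18% passed the unadjusted p, and DESeq2 called 15.4% and 14.2%, so that the mitochondrial counts of lower calls were near the background. With library size alone as the scaling, which moves the median of all genes by 0.157 on the log2 scale, the counts were 2 higher (Wars2 and Yars2) and 1 lower. The share of all genes called with that scaling was not worked out. The median of the 16 was 0.03, with a range from -0.58 to 0.42, beside 0.02 over all genes. The called genes were Lars2, the leucyl enzyme, and Fars2, the phenylalanyl enzyme.

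Lars2 was at 13.6, 13.3, 11.5, 13.0 and 12.6 CPM in vehicle livers and at 11.0, 7.12, 7.66, 9.53 and 7.60 CPM in halofuginone livers. All halofuginone livers, the first included, were below all vehicle livers. The gene fell by 0.58 ± 0.13 on the log2 scale (adjusted p = 0.0126), and without halofuginone liver 1 by 0.70 ± 0.11. Fars2 was at 18.2, 18.6, 17.4, 21.0 and 19.6 CPM against 15.9, 14.4, 13.9, 17.6 and 14.2 CPM, with an overlap of 17.6 and 17.4 CPM. Its fall of 0.32 ± 0.09 (adjusted p = 0.0329) lost the call in 7 of the 10 sets that left out a library.

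The isoleucyl gene Iars2 was the other mitochondrial member whose liver groups did not overlap, at 64.1 to 75.1 CPM with vehicle and 57.4 to 63.7 CPM with halofuginone. It stood at -0.19 ± 0.08 with an adjusted p of 0.0919, and 6.55% of all genes were likewise separate with halofuginone lower. Without halofuginone liver 1, 4 mitochondrial genes were called lower (Fars2, Hars2, Iars2 and Lars2) and 3 higher (Ears2, Wars2 and Yars2), near the 21.6% and 21.2% of all genes, and the median was 0.09. Of these, Hars2, Iars2 and Lars2 were then separate from vehicle with halofuginone lower, beside 16.1% of all genes. Ears2, the glutamyl enzyme, then stood at 0.58 ± 0.15 and Hars2, the histidyl enzyme, at -0.40 ± 0.10. The largest positive value with all libraries was also that of Ears2, at 0.42 ± 0.25 (adjusted p = 0.229), and it ran from 4.87 CPM in halofuginone liver 1 to 13.9 CPM in halofuginone liver 2.

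The family can also be divided by catalytic fold. The enzymes fall into 2 unrelated structural classes, class I and class II, each spread over both compartments (the double enzyme of Eprs has a domain of each and was left out). In liver 5 of 18 class I genes were called higher and 1 lower, with a median of 0.25, and 5 of 18 class II genes were called higher and 1 lower, with a median of 0.17. The counts without halofuginone liver 1 were 10 higher and 2 lower in class I and 8 higher and 3 lower in class II. Of all genes 12.7% were called higher and 10.5% lower, or 21.2% and 21.6% without that library. The difference between the classes was not tested.

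In fat no gene of the 14030 tested was called by edgeR (0%), so the fat values are given without calls. At an unadjusted p under 0.05, 12 of the 21 cytosolic synthetases were higher and 1 was lower, against 5.50% and 7.91% of all genes. The median of the 21 was 0.66, with a range from -0.64 to 1.39, against 0.01 over all genes tested, and it was 0.41 without fat halofuginone 1 and 0.49 without fat vehicle 2. In 11 of the 21 the 3 halofuginone libraries were all above the 3 vehicle libraries, and in 1 (Tarsl2) all below, beside 10.2% and 10.4% of all genes. DESeq2 called 7 cytosolic members higher (Aars, Wars, Sars, Gars, Yars, Eprs and Cars) and 0 lower, with 1.67% of all genes called higher and 3.48% lower.

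Aars had the largest difference of the family in fat. It was at 99.6, 110 and 118 CPM with vehicle and at 328, 287 and 240 CPM with halofuginone. The 3 halofuginone libraries all lay far above the vehicle range, with no overlap. The log2 fold change was 1.39 ± 0.18 (SE, n = 3 and 3), with an unadjusted p of 0.000108 and an adjusted p of 0.0954 in edgeR and an adjusted p of 2.49e-11 in DESeq2.

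The tryptophanyl, seryl and glycyl enzymes had the next smallest p values of the family in fat. Wars was at 64.6, 68.1 and 63.0 CPM with vehicle and at 146, 131 and 110 CPM with halofuginone. Sars was at 110, 120 and 119 CPM and at 254, 219 and 190 CPM, and Gars at 98.3, 104 and 96.0 CPM and at 221, 177 and 150 CPM. In these 3 genes the vehicle libraries were close together, and every halofuginone library was higher, with fat halofuginone 1 highest and 3 lowest. Wars stood at 0.98 ± 0.16 (adjusted p = 0.120 in edgeR), Sars at 0.92 ± 0.16 (adjusted p = 0.138) and Gars at 0.88 ± 0.18 (adjusted p = 0.160).

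Other cytosolic members with separate fat groups were Yars at 1.04 ± 0.22, Cars at 0.93 ± 0.24, Tars at 0.79 ± 0.26, Iars at 0.76 ± 0.25, Mars at 0.67 ± 0.25 and Lars at 0.52 ± 0.16. Tarsl2 went the opposite way to its close relative Tars, at 8.99, 7.05 and 9.81 CPM with vehicle and 6.29, 5.07 and 5.21 CPM with halofuginone. Its log2 fold change was -0.64 ± 0.23 (unadjusted p = 0.0293, adjusted p = 0.323 in edgeR). Tars was at 53.1, 41.4 and 64.8 CPM and at 120, 86.1 and 69.6 CPM. The 2 genes are related in sequence, and how the authors' counting divided reads shared between them is not known.

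At the low end of the cytosolic genes in fat were Hars at 0.01 ± 0.13, Kars at -0.09 ± 0.14 and Qars at -0.30 ± 0.19. Qars was at 88.4, 88.7 and 96.2 CPM with vehicle and at 66.2, 62.7 and 92.9 CPM with halofuginone. Kars was at 92.2, 96.4 and 86.3 CPM and at 80.1, 81.9 and 96.6 CPM. For both, fat halofuginone 3 lay in or above the vehicle range and the other 2 halofuginone libraries below it. Hars, at 63.0, 64.2 and 67.5 CPM and at 66.2, 60.5 and 69.9 CPM, and Rars, at 64.1, 49.0 and 80.9 CPM and at 69.4, 82.4 and 68.1 CPM, overlapped between the arms.

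Mitochondrial members in fat had a median of 0.07 and a range from -0.28 to 0.50. In edgeR 0 of 16 had an unadjusted p under 0.05, and DESeq2 called 0. Ears2 and Rars2, the arginyl enzyme, were separate with halofuginone higher, and Iars2 with halofuginone lower. These counts of 2 and 1 of 16 were near the 10.2% and 10.4% of all genes. Ears2 stood at 0.50 ± 0.21 and Rars2 at 0.46 ± 0.22. Iars2 was at 118, 116 and 98.6 CPM with vehicle and at 92.5, 89.7 and 94.7 CPM with halofuginone, and Lars2, called lower in liver, was at 26.0, 23.7 and 21.1 CPM and at 17.7, 16.5 and 24.0 CPM. Of the scaffold genes, Aimp2 was separate with halofuginone higher, beside the same 10.2% of all genes, and the 3 stood at 0.21 to 0.40. Complex-bound enzymes had a median of 0.35 in fat and the others of 0.79.

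Marker levels of other cells moved in the same fat libraries. The summed level of 8 macrophage markers was 4143 to 9204 CPM with vehicle and 2793 to 3117 CPM with halofuginone, and 6 of the 7 tested markers were separate with halofuginone lower (median log2 fold change -1.53). The 8 fibroblast markers summed to 3597 to 4160 CPM and to 2599 to 3220 CPM, with 4 separate and lower (median -0.93). Among all genes 10.4% were separate with halofuginone lower. Adipocyte markers overlapped, at 12011 to 22652 CPM and 20191 to 24685 CPM, and Clec4f, a macrophage gene defining the liver-resident type, was at 0.0600 CPM at most. The part of these shifts in the synthetase values was not tested.

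The difference of the drug effect between tissues (fat effect minus liver effect) was tested in a single fit of all 16 libraries. Of the 40 members 0 were called in edgeR, against 0.949% of the 14853 genes tested, and at an unadjusted p under 0.05, which 6.91% of all genes passed higher and 8.83% lower, 5 were higher and 3 lower. The most negative difference was that of Qars, at -0.82 ± 0.22 (SE) with an adjusted p of 0.0822. The most positive were Wars at 0.80 ± 0.28 (adjusted p = 0.180) and Yars at 0.78 ± 0.26 (adjusted p = 0.154). Aars stood at 0.68 ± 0.30 (adjusted p = 0.280).

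Without halofuginone liver 1, 4 members were called in this contrast, all with the more positive effect in liver, against 7.07% of 14902 genes (4.13% in that direction). They were Qars at -0.91 ± 0.18 (adjusted p = 0.00760), Kars at -0.60 ± 0.13 (adjusted p = 0.0169), Hars at -0.50 ± 0.12 (adjusted p = 0.0252) and Rars at -0.75 ± 0.19 (adjusted p = 0.0276). Qars was also called without fat halofuginone 3, at -1.04 with an adjusted p of 0.0303, and was not called in the other 14 sets that left out a library. The libraries were taken as independent in this fit. Halofuginone liver 1 was picked out for its low levels of these same genes, so leaving it out favours a more positive effect in liver. The median difference of the cytosolic members was -0.10 with every library and -0.24 without that one.

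**Figure D4:**
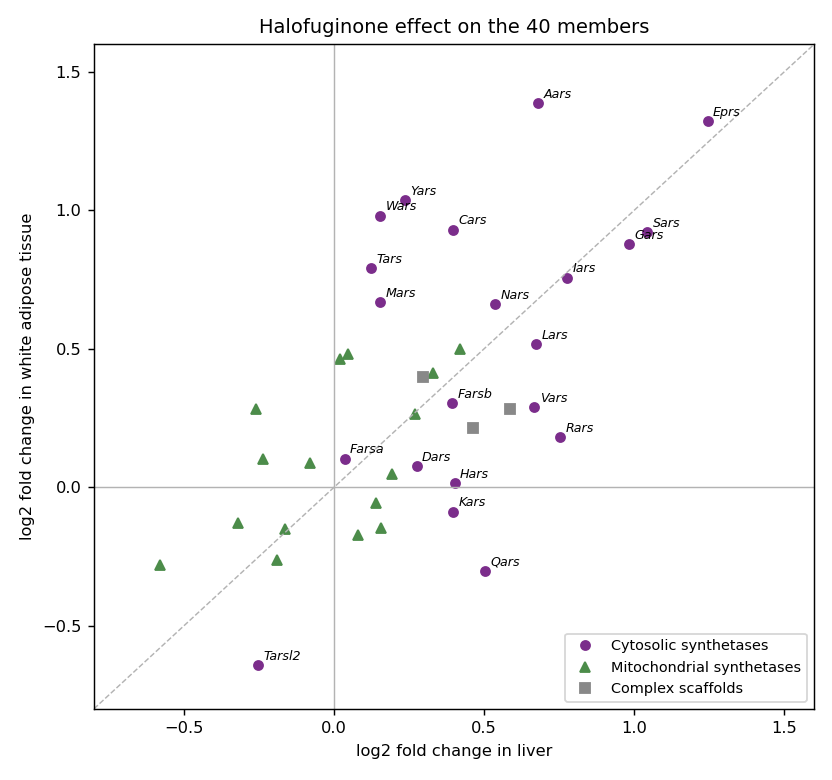
Log2 fold change in fat (vertical) against that in liver (horizontal) for the 40 members, with cytosolic genes as named circles, mitochondrial genes as triangles, scaffold genes as squares and the dashed line where both would be equal. Eprs lies near the line at 1.24 and 1.32; Aars, Yars, Wars and Tars lie above it, and Qars, Kars, Hars and Rars below it.

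The promoter matches were set beside these values as a description only. The 5 cytosolic genes with a match had a median log2 fold change of 0.68 in liver and 0.88 in fat, and the 9 cytosolic genes with a window and no match had 0.39 and 0.10. The order was not uniform. Tars and Yars, each with a match close to the start, stood at 0.12 and 0.23 in liver and at 0.79 and 1.04 in fat, and Eprs and Sars, with no match in the window, were among the largest values in both tissues. Windows were not at hand for 7 cytosolic members, Cars, Hars, Lars, Nars, Rars, Vars and Wars.

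Levels without drug were compared among members as FPKM, the values per gene length and library size that the authors deposited. In vehicle liver the leading cytosolic genes were Aars at 41.5 ± 5.75 FPKM (SD, n = 5), Nars at 37.7 ± 3.39 and Sars at 30.3 ± 4.22. Aars and Nars overlapped, as did Nars and Sars. Eprs was 6th at 22.0 ± 2.67 FPKM, overlapping Tars at 25.2 ± 2.28 above it and Kars at 21.0 ± 0.987 after it. Tarsl2 was last at 3.29 ± 0.493 FPKM, below Vars at 4.51 ± 0.530, and their ranges overlapped.

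Vehicle fat had another order. Nars led at 60.7 ± 13.3 FPKM (SD, n = 3), with Sars at 58.6 ± 2.89 and Kars at 44.0 ± 3.93 next. Nars and Sars overlapped, whereas every Sars value was above every Kars value. Aars, first in liver, was 12th at 18.7 ± 1.42 FPKM, and Tars, 5th in liver, was 18th at 12.9 ± 2.37. Eprs was 10th at 25.7 ± 6.96 FPKM, and its range of 17.6 to 29.8 FPKM overlapped those of Farsb and Wars, ranked beside it. Tarsl2 was last again, at 2.63 ± 0.342 FPKM. By CPM, which does not correct for gene length, Eprs ranked 2nd of the 21 in both tissues, so its place depends on the scale.

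On the same scale mitochondrial genes had mostly lower levels. In vehicle liver they ran from Iars2 at 13.6 ± 0.912 FPKM and Fars2 at 11.2 ± 1.24 down to Mars2, the methionyl enzyme, at 0.356 ± 0.0305. In fat Iars2 also led, at 22.0 ± 2.64 FPKM, and Mars2 was last at 0.660 ± 0.0889. Pars2 was at 1.11 ± 0.428 FPKM in vehicle liver and 2.01 ± 0.887 in vehicle fat. Direct contrasts of fat with liver turned on the scaling: with TMM 0 of the 21 cytosolic members were higher in vehicle fat and 10 lower, and by library size alone, which moves the median of all genes by 1.19 on the log2 scale, 14 were higher and 2 lower. Of all genes 40.9% were called higher and 31.5% lower in the first fit, and the shares with library size alone were not worked out. No direction between the tissues is given here.

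**Figure D5:**
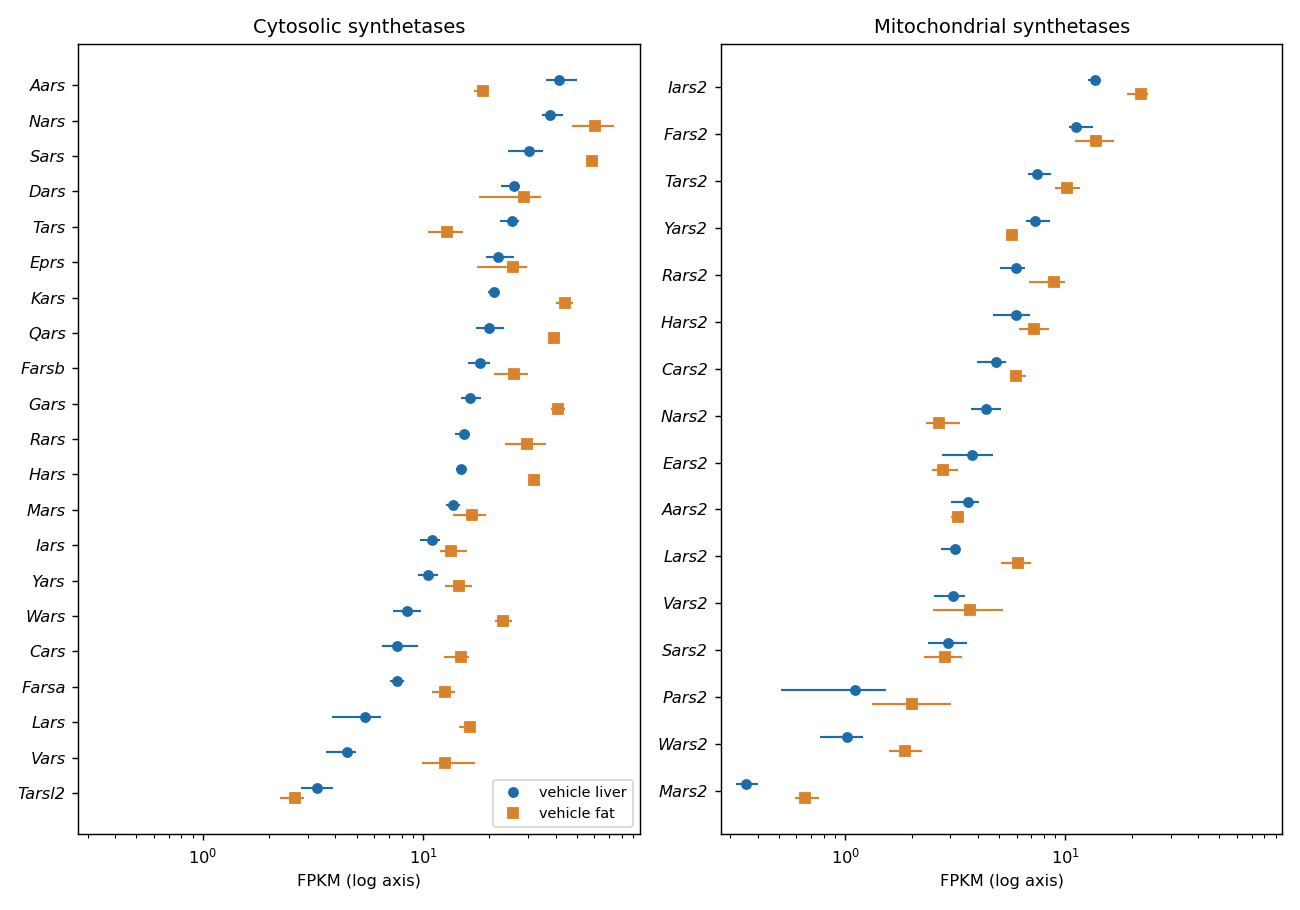
FPKM of the cytosolic (left) and mitochondrial (right) synthetases in vehicle liver (circles, n = 5) and vehicle fat (squares, n = 3) on a log axis; points are means, lines run from the lowest to the highest library, and genes are ordered by their liver mean. Aars leads in liver at 41.5 FPKM and stands at 18.7 in fat, and Iars2 leads the mitochondrial genes in both.

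Under halofuginone the leading cytosolic genes stood in a different order. In halofuginone liver Aars was at 74.4 ± 20.9 FPKM, Sars at 67.5 ± 21.9, Nars at 61.0 ± 20.7 and Eprs at 58.8 ± 21.7, with SDs widened by halofuginone liver 1. In halofuginone fat Sars led at 112 ± 19.9 FPKM, with Nars at 99.0 ± 21.6, Gars at 78.4 ± 15.3, Eprs at 67.4 ± 17.8 and Aars at 50.7 ± 7.48. The replicate ranges of neighbours in these orders overlapped.

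Genes of the GCN2 and ATF4 response, a list that holds no synthetase, were measured in the same libraries. Of its 27 genes tested in liver, 16 were called higher and 2 lower, with a median of 1.75, beside 12.7% and 10.5% of all genes. Without halofuginone liver 1 there were 22 higher and 2 lower of 28, beside 21.2% and 21.6%. Atf4 rose by 0.77 ± 0.20 on the log2 scale (adjusted p = 0.0220), from 56.8 to 85.9 CPM with vehicle to 65.0 to 145 CPM with halofuginone. Asns, asparagine synthetase, rose by 6.80 ± 0.74 (adjusted p = 0.000896), from 0.317 to 1.35 CPM to 6.71 to 127 CPM, with no overlap. The next largest values were those of Trib3, a pseudokinase, at 5.78 ± 0.81, Nupr1, a stress-induced nuclear protein, at 5.50 ± 0.83, Psat1, an enzyme of serine synthesis, at 4.63 ± 0.77, and Fgf21, a secreted hormone, at 2.91 ± 0.51. The largest synthetase value in liver, 1.24 for Eprs, was below the median of this list.

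In fat the same list had a median of 1.15 over 31 genes, with 17 separate and higher and 0 called by edgeR. In edgeR 17 were higher at an unadjusted p under 0.05, and DESeq2 called 15 higher. The shares of all genes were 10.2% separate and higher, 5.5% higher at the unadjusted p and 1.67% called higher by DESeq2. Asns was at 31.5 to 54.5 CPM with vehicle and 136 to 298 CPM with halofuginone, and its log2 fold change was 2.12 ± 0.37. The difference between tissues for Asns was -4.70 ± 0.92 (adjusted p = 0.0323 in edgeR). Atf4 stood at 1.15 ± 0.26 in fat, and its difference between tissues was 0.35 ± 0.34 (adjusted p = 0.682).

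Genes that work beside the synthetases were listed separately. Of 14 partners (tRNA export, editing of mischarged tRNA, the mitochondrial amidotransferase and others), 3 were called higher in liver and 1 lower, with a median of 0.29. Their values ran from -0.62 to 1.76, and the gene with the largest value was not called. Without halofuginone liver 1 there were 6 higher and 1 lower. Among all genes 12.7% were called higher and 10.5% lower, and 21.2% and 21.6% without that library. Xpot, which exports tRNA from the nucleus, rose by 0.89 ± 0.15 (adjusted p = 0.00565) and Trnau1ap, which acts with selenocysteine tRNA, by 0.57 ± 0.17 (adjusted p = 0.0371). In the mitochondrial amidotransferase, which makes glutaminyl-tRNA from the product of Ears2, Qrsl1 rose by 0.50 ± 0.16 (adjusted p = 0.0461), Gatb fell by 0.62 ± 0.08 (adjusted p = 0.00313) and Gatc stood at 0.23 ± 0.12 (adjusted p = 0.169). Of these 3 subunits, then, 1 rose, 1 fell and 1 did not pass the test. In fat Xpot stood at 0.99 ± 0.26 (adjusted p = 0.214 in edgeR).

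Elongation factors deliver charged tRNA to the ribosome or act with those that do. In a list of 10 genes for such factors and related translation proteins, 6 were called in liver. Among all genes 23.2% were called there, 12.7% higher and 10.5% lower. The cytosolic factors Eef1b2, Eef1g and Eef1d rose by 0.49 ± 0.11, 0.48 ± 0.12 and 0.41 ± 0.10 on the log2 scale, and the mitochondrial factors Gfm2, Gfm1 and Tufm fell by 0.47 ± 0.07, 0.46 ± 0.09 and 0.27 ± 0.09. Adjusted p ran from 0.00374 to 0.0460 for these 6 genes. Without halofuginone liver 1 too, 3 were called in each direction, beside 21.2% of all genes higher and 21.6% lower. In fat 0 of 10 had an unadjusted p under 0.05 in edgeR, and DESeq2 called 0.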

How the data were processed

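Poly(A) RNA of 16 libraries was measured, and per the labels' protocols RNA was extracted with Trizol, selected on oligo(dT) beads and made into libraries with a NEBNext Ultra kit; whether counting used strand is not given in the sources used here. The submitters' processing notes name fastp 0.18.0, Bowtie2 2.2.8, HISAT2, StringTie 1.3.1, RSEM and the build mm39, without roles. The authors deposited whole-number counts per gene and FPKM values, and all value columns matched a library. Reads shared by related or overlapping genes may be divided arbitrarily.

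Each tissue was filtered (filterByExpr), scaled by TMM and fitted with edgeR 4.0.16 (R 4.3.3), using the quasi-likelihood test, two-sided, with Benjamini-Hochberg adjustment over all genes tested; an adjusted p under 0.05 was a call. The tissue contrast used all 16 libraries in 1 fit with 4 groups. SE is the log2 fold change divided by the root of F. FPKM were used for levels between genes. Alternatives were DESeq2 1.42.0, limma 3.58.1 on log2(FPKM + 1) and log2(FPKM + 0.1) with a minimum of 1 FPKM, other scalings and filters, a replicate block, and leaving out each library. The script was tested on simulated data. No library pair of a group agreed within counting noise (smallest chi-square per degree of freedom 29.7). The members and lists were chosen with earlier results of these data known. Every member may be named; values per library were given for Eprs, Pars2, the 6 largest changes called in liver, the 4 smallest p in fat and members called in the tissue contrast, and others were added after their values were seen. Some gene lists are not reported here.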

Additional observations from a re-analysis of the deposited data

Results flagged for a closer look

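Of the 80 liver groups of 5 libraries tested (40 genes, each with vehicle and with halofuginone), 9 held a library whose gap to its nearest neighbour, as a share of the range of the group, was above 0.71, the 95% critical value of Dixon's test. Chance alone flags about 1 in 20 such groups, and the genes share their libraries. In 7 of the 9, halofuginone liver 1 was the low library: the share was 0.886 for Hars (30.5 CPM, next 43.2), 0.842 for Iars (45.0, next 91.1), 0.832 for Eprs (109, next 292), 0.803 for Gars (36.7, next 85.6), 0.767 for Vars (19.5, next 30.6), 0.742 for Kars (44.0, next 58.6) and 0.728 for Aars (224, next 415). For Hars2 the same library was the high one, at 22.3 CPM against 15.1 for the next, with a share of 0.814. For Tars the high library was halofuginone liver 2, at 136 CPM against 114, with a share of 0.753.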

How the results depend on the processing

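The call of Eprs, Sars, Gars, Iars, Rars, Vars, Qars and Aimp1 in liver held under all 20 alternatives run, with adjusted p for Eprs between 1.03e-05 and 0.0393. Leaving out 1 library gave 7 to 16 cytosolic members called higher in liver and 0 to 1 lower, 0 to 3 mitochondrial members higher and 1 to 4 lower, and 1 to 3 scaffold genes higher. Mitochondrial members called in liver were 2 higher and 1 lower with library size alone, 0 lower with limma on FPKM at either pseudocount and 1 lower with all 4 groups in 1 fit; their median was 0.19 with library size alone and 0.15 and 0.17 with limma (pseudocounts 1 and 0.1). Without a filter on low counts 1 scaffold gene was called. In fat, cytosolic members called higher were 7 with DESeq2, 5 with all 4 groups in 1 fit and 1 with limma (pseudocount 1); leaving out 1 library gave medians of 0.41 to 0.79 for cytosolic and -0.10 to 0.17 for mitochondrial members, and limma (pseudocount 0.1) gave 0.15 for the latter. In the contrast between tissues 0 to 4 cytosolic members were called lower with 1 library left out. In vehicle fat against vehicle liver, library size alone gave 14 cytosolic members higher and 2 lower, 7 mitochondrial higher and 1 lower, and 3 scaffold genes higher and 0 lower, in place of 10, 12 and 1 lower and 0 higher; DESeq2's size factors gave 2 scaffold genes lower, and leaving out 1 library gave 0 to 1 cytosolic higher and 1 to 2 scaffold genes lower. The share of all genes called was worked out only for the DESeq2 test and for the fits without halofuginone liver 1 or fat vehicle 2. The counts from the other alternatives therefore stand without a background and say nothing particular to the members. The cause of these shifts was not tested.

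Signs reversed only in members that were not called in the same comparison. In liver Cars2 was at 0.074 (library size alone), 0.14 and 0.16 (limma). In fat Hars was at -0.000433 with all 4 groups in 1 fit, and Sars2 at 0.0082 (library size alone) and 0.0017 (limma, pseudocount 1). The contrast between tissues for Eprs was -0.026 with library size alone. With 1 library left out the ranges were -0.023 to 0.071 for Farsa, -0.064 to 0.15 for Mars2 and -0.045 to 0.071 for Rars2 in liver, -0.19 to 0.24 for Dars, -0.013 to 0.10 for Hars, -0.081 to 0.19 for Cars2, -0.24 to 0.037 for Fars2, -0.12 to 0.33 for Pars2, -0.26 to 0.077 for Sars2 and -0.30 to 0.063 for Vars2 in fat, and -0.16 to 0.26 for Eprs between tissues.

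With the replicate number as a block, 7 cytosolic members and 1 scaffold gene were called higher in liver and 0 members in fat. The share of all genes called with the block was not worked out. Libraries of the same number share only that number: their deviations correlated at -0.18 to 0.10 in liver and -0.59 to 0.16 in fat. The low counts of Pars2 and the 3 fat libraries a group limit what these data can resolve.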
